A study of Mus musculus with 6 samples.

Results

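Cytochrome P450 enzymes are heme proteins that insert oxygen into foreign compounds, steroids, vitamins and fatty acids, and families 1 to 4 hold most of the members known for drugs, pollutants and fatty acids. The 73 genes described here are those that the array names as Cyp, a family number from 1 to 4, a subfamily letter and a gene number. They were represented by 101 of the 56605 probes, 51 by 1 probe and 22 by several, out of 36870 gene names. Names of these families with another form were left out, among them pseudogenes, Cyp2ab1, Cyp3a41a, Cyp4a12a, Cyp4a12b, Cyp4a30b and the antisense Cyp4x1os. RNA came from lung tumors of C57BL/6J mice. All samples of both groups carried a floxed Ror1 gene (Ror1f/f), the transgene CAG-CreER, and a transgene for human EGFR with an activating deletion under the SPC promoter (SPC-hEGFRdel746-750). The Cre recombinase follows the broadly active CAG promoter and needs tamoxifen to act. SPC, the promoter of surfactant protein C, drives the EGFR mutant in alveolar epithelial cells. The 3 tamoxifen and the 3 corn oil samples were treated from 16 to 20 weeks of age, for 4 weeks, and collected at 20 weeks. Tamoxifen and oil samples of the same number formed a couple that was hybridised together on 2 arrays with the dyes exchanged, giving 6 arrays and 12 readings of a probe, 6 per group. The labels used here give neither the sex of the mice nor whether the samples were separate animals, so p-values measure only the spread between these samples. The question addressed here was how the P450 genes differed between the samples labelled tamoxifen and those labelled oil.

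P450s in the endoplasmic reticulum receive electrons from the reductase encoded by Por and, for some reactions, from cytochrome b5. In the lung, club cells of the airway epithelium are known for a high P450 content, with Cyp2f2 as a marker. The Cyp2c and Cyp2j enzymes include epoxygenases of arachidonic acid, and Cyp4a and Cyp4f enzymes include omega-hydroxylases of fatty acids. Many genes of these families are known mainly from the liver, where several Cyp2c genes of the mouse differ in level between males and females. Nuclear receptors and the aryl hydrocarbon receptor control many of them, and tamoxifen itself is a substrate of P450 enzymes.

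The sequences of 5 Cyp2c probes are shown because these probes had the lowest ratios among the P450 genes and because they do not read 5 separate genes cleanly. Bases 1 to 30 of each probe of 60 bases are given 5′ to 3′, and the capitals in the Cyp2c67 and Cyp2c68 probes mark the bases in which these differ from each other. The probes lie on chromosome 19 of build mm9 at chr19:39403642-39403701 (plus strand, Cyp2c29, NM_007815), chr19:39683429-39683488 (minus strand, Cyp2c67, NM_001024719), chr19:39763420-39763479 (minus strand, Cyp2c68, NM_001039555), chr19:39861388-39877026 (minus strand, Cyp2c40, NM_010004, with its 60 bases spread over a spliced span of 15639 bases) and chr19:39917304-39917363 (minus strand, Cyp2c69, NM_001104525). No exon annotation of mm9 was used here.
Cyp2c67 probe: aacAcagtcccagAaattccatctatattc
Cyp2c68 probe: acCcagtcccagGaattccatctatattcc
Cyp2c69 probe: aagatgaggaaagcttctgctatgctgttt
Cyp2c40 probe: ttggatgttacaaatcctcgggacttcatt
Cyp2c29 probe: gagtttcccaacccagagatgtttgaccct
Over their full length the Cyp2c67 and Cyp2c68 probes were identical at 55 of 59 aligned bases. The accessions that the array lists for each probe, at most 4, named 4 genes for the Cyp2c69 probe (Cyp2c40, Cyp2c67, Cyp2c68 and Cyp2c69), 3 for the Cyp2c68 probe (Cyp2c40, Cyp2c68 and Cyp2c69) and 2 for the Cyp2c40 probe (Cyp2c40 and Cyp2c68). The Cyp2c67 and Cyp2c29 probes were listed for 1 gene each. The probes of Cyp2c40, Cyp2c67, Cyp2c68 and Cyp2c69 are therefore not independent readings, and the gene that gave their signal is uncertain.

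Promoters of 4 of these genes are shown because the probes varied together across the samples. That of Cyp2c68 is left out because it was 91.1% identical to that of Cyp2c69 over the aligned columns. They are RefSeq sequences of assembly GRCm38.p6, 250 bases before and 50 after the annotated start. Capitals mark CAAAGTCCA, a sequence known for HNF4 transcription factors, which was searched on both strands and overlapped no other motif marked here. The windows are chr19:39886720-39887019 (minus strand, Cyp2c69), chr19:39812765-39813064 (minus strand, Cyp2c40), chr19:39648993-39649292 (minus strand, Cyp2c67) and chr19:39286835-39287134 (plus strand, Cyp2c29).
Cyp2c69 promoter: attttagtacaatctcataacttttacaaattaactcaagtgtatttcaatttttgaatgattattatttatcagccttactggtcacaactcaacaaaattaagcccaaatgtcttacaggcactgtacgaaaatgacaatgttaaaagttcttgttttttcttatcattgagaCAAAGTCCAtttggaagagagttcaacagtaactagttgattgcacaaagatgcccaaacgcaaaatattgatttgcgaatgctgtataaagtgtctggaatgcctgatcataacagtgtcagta
Cyp2c40 promoter: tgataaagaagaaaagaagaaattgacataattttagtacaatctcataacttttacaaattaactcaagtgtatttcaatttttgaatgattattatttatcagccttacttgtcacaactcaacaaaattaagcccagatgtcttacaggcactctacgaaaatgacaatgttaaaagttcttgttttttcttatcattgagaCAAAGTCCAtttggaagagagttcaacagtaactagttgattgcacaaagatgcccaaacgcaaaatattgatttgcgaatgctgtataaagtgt
Cyp2c67 promoter: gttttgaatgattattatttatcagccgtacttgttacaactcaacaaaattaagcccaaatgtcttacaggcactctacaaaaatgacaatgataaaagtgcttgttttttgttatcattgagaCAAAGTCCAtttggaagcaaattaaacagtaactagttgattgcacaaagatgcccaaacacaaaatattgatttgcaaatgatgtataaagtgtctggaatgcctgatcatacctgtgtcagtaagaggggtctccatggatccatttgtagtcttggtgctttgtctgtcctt
Cyp2c29 promoter: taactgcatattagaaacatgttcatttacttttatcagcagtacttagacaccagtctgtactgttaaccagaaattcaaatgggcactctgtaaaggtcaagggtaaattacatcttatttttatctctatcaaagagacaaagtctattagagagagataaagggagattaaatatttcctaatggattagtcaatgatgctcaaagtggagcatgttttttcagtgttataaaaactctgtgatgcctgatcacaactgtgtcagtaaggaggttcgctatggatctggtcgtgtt
The motif was in 4 of these 5 genes' windows, those of Cyp2c40, Cyp2c67, Cyp2c68 and Cyp2c69. It was in 8 of the 67 windows that matched 60 of the 73 P450 genes, the others being Cyp2c65, Cyp2c70, Cyp3a11 and Cyp3a16, and in 0.475% of all 32851 windows. The windows belong to genes of the same subfamily and are not independent, but were alike to different degrees. Over the aligned columns those of Cyp2c68 and Cyp2c69 were 91.1% identical and those of Cyp2c40 and Cyp2c69 80.9%. The window of Cyp2c67 was 67.0% identical to that of Cyp2c69 and 54.2% to that of Cyp2c40. That of Cyp2c29, without the motif, was 57.7% identical to that of Cyp2c69. The core of the aryl hydrocarbon receptor site, GCGTG, was in 13 of the 67 windows, Cyp1a1 and Cyp1b1 among them, and in 32.4% of all windows. Of these 5 genes it was in 1, Cyp2c68, whose window is not shown. Further motifs were searched. A STAT motif, TTCNNNGAA, was in 3 of the 67 windows, in 0 of these 5 genes and in 8.3% of all windows. An HNF1 motif (0.00913% of all windows) and a C/EBP palindrome (0.183%) were in 0 of the 67. Hnf4a, which encodes an HNF4 factor, was above background in 2 readings of tamoxifen and 0 of oil, out of 6 each, and was not tested.

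The scanner software flagged 51.8% to 58.8% of probes as well above background, depending on the array and the dye. Within a couple, the ratios of both dye orientations correlated across genes, which are not independent replicates, with r of 0.76, 0.77 and 0.79 in couples 1, 2 and 3. The number of arrays limits the precision, and genes had a median SE of 0.098 in log2 ratio. Ror1, the floxed gene, had log2 ratios of tamoxifen over oil of 0.58, 0.44 and 0.18 (mean 0.40 ± 0.21, SD, n = 3 couples; limma, p adjusted over all genes = 0.69). That goes against the direction a deletion would give. Which exon was floxed is not in the labels, so this probe may lie outside the deleted stretch and then says nothing about the deletion. Tamoxifen and oil below are the groups as labelled.

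Of the 73 P450 genes, 29 were well above background in all 12 readings (39.7%, against 50.2% of all gene names), 14 in 1 to 11 readings and 30 in 0 readings (41.1%, against 36.1%). A gene was tested if, in the tamoxifen or in the oil channel, its brightest probe passed this flag on both arrays of 2 or more couples, which 35 P450 genes (47.9%) and 55.5% of all gene names met. By subfamily, 7 of the 15 Cyp2c genes, 3 of 9 Cyp2d, 3 of 6 Cyp2j and 2 of 5 Cyp2b genes were well above background in all 12 readings. Of the Cyp4f genes, 4 were so in all 12, 2 in 1 to 11 and 3 in 0 readings. For the 30 genes with 0 such readings the signal has only an upper bound, which does not show that expression was lacking. These included Cyp1a1 and Cyp1a2, the classic targets of the aryl hydrocarbon receptor, Cyp2g1, known from olfactory epithelium, and Cyp4a10 and Cyp4a14, known targets of PPAR-alpha. The rest of the 30 were Cyp2a12, Cyp2a22, Cyp2b13, Cyp2b19, Cyp2b23, Cyp2c37, Cyp2c39, Cyp2c54, Cyp2c55, Cyp2c65, Cyp2c66, Cyp2d12, Cyp2d40, Cyp2d9, Cyp2j11, Cyp2j5, Cyp3a16, Cyp3a25, Cyp3a44, Cyp3a57, Cyp3a59, Cyp4a29, Cyp4f14, Cyp4f37 and Cyp4f40. The 8 untested genes with some reading above background were Cyp2c50, Cyp2d10, Cyp2d34 and Cyp4f15, each in 0 tamoxifen and 1 oil reading, Cyp2e1 in 1 and 3, Cyp3a11 in 3 and 4, Cyp4a31 in 2 and 3, and Cyp4x1 in 1 and 2.

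**Figure D1:**
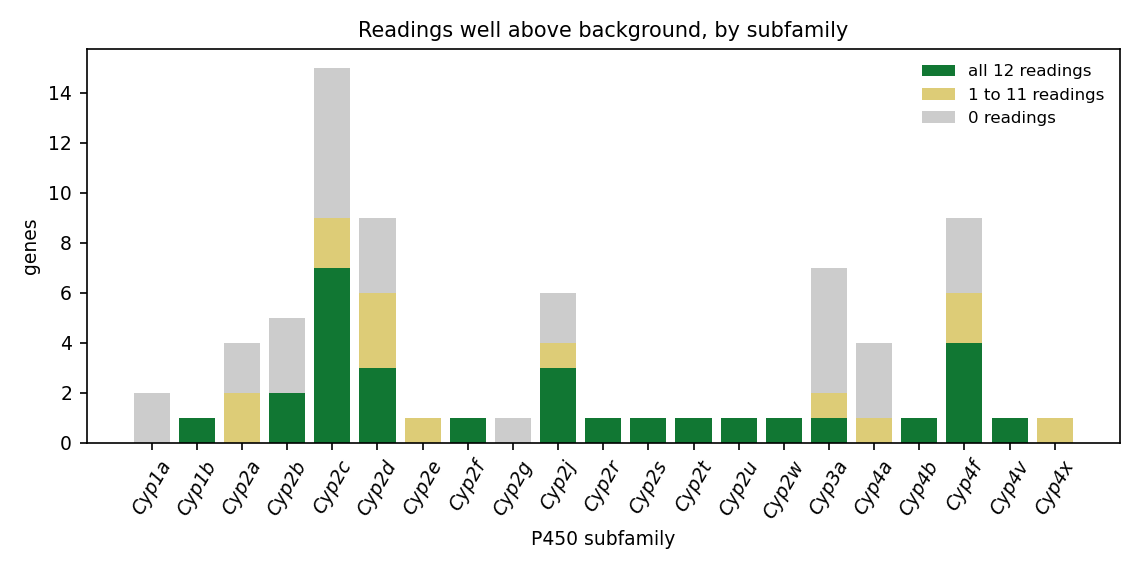
Number of P450 genes (vertical axis) in each subfamily (horizontal axis) whose probe was well above background in all 12 readings, in 1 to 11 or in 0. Cyp2c, the largest subfamily with 15 genes, had 7 genes in all 12 readings and 6 in 0 readings, and the 2 Cyp1a genes had 0 readings.

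In limma, 0 of the 35 P450 genes and 0% of the 20475 genes tested passed an adjusted p of 0.05. The adjusted p of the P450 genes ran from 0.69 to 0.99, and the lowest of all genes was 0.41. Without adjustment, 9 P450 genes and 1436 of all genes, 7.01%, had a p under 0.05. On the lower side they were Cyp2c29, Cyp2c40, Cyp2c67, Cyp2c68, Cyp2c69, Cyp2s1 and Cyp3a13 (7 of 35, against 4.01% of all genes). On the higher side they were Cyp2c44 and Cyp4f17 (2 of 35, against 3% of all genes). Cyp2c44 passed the filter only through tamoxifen, the group in which it is brighter, so its count on the higher side carries no weight. The mean ratio was above 0 for 15 P450 genes and below 0 for 20, and 51.2% of all genes were below 0. Of these, Cyp2c44 and Cyp4f39 above 0 and Cyp2j13 below 0 passed the filter only through the group in which they are brighter. Their places in the counts of direction carry no weight. The median over the 35 genes was -0.02 on the log2 scale, with -0.08, -0.05 and 0.02 in couples 1, 2 and 3, beside -0.0039 for all genes. Without couple 1 the median of the P450 genes was 0.034. The sign was the same in all 3 couples for 11 genes below 0 (16.4% of all genes) and 9 above (13.8% of all genes). On all 6 arrays it was the same for 8 below 0 (7.21% of all genes) and 4 above, Cyp2d22, Cyp2j6, Cyp4f16 and Cyp4f17 (6.04% of all genes). The lower counts of 7, 11 and 8 each hold Cyp2c40, Cyp2c67, Cyp2c68 and Cyp2c69, whose probes are not independent readings. These are therefore not counts of separate genes. Cyp2c44 is among the 9 above 0 in all 3 couples, and Cyp2j13 is among the 11 below 0. No P450 gene tested had a mean at least 2-fold higher in tamoxifen (0.112% of all genes).

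**Figure D2:**
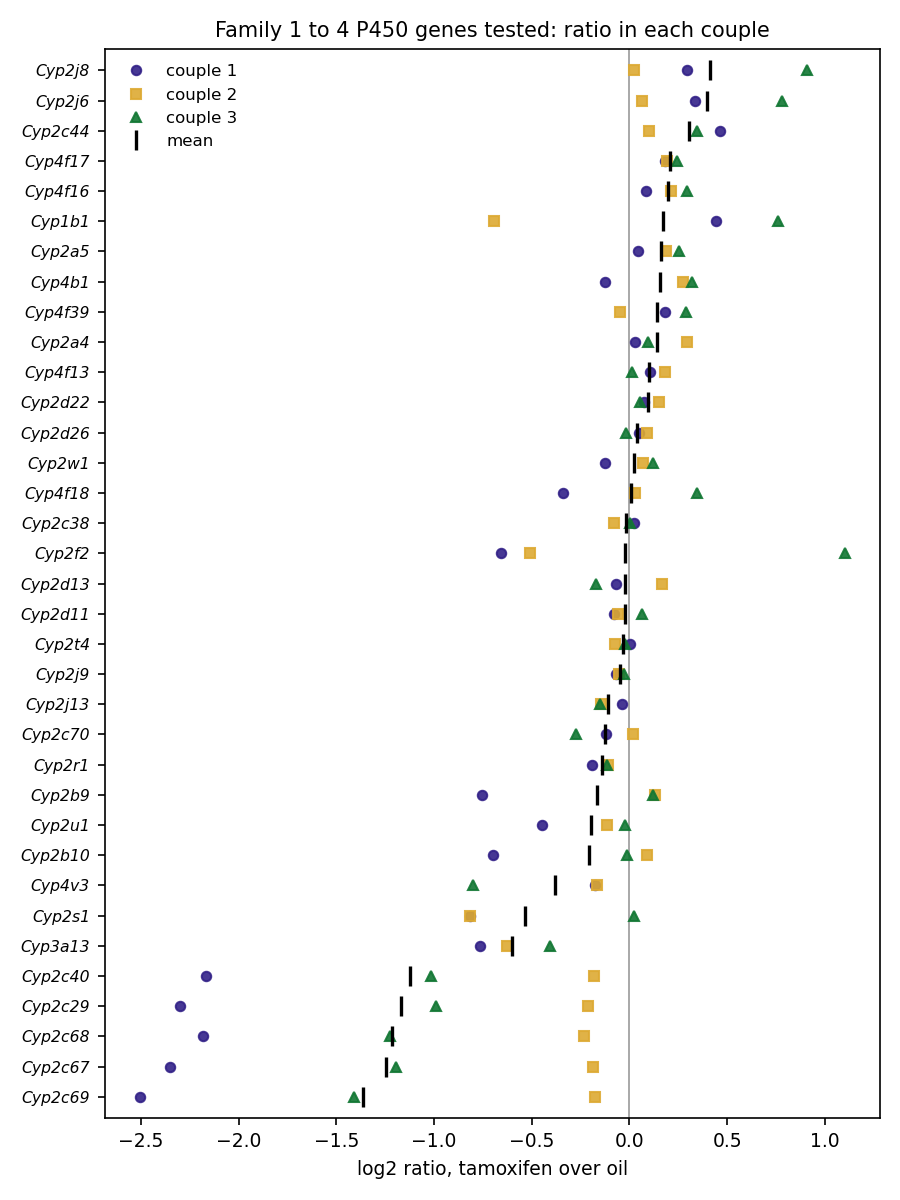
Log2 ratio of tamoxifen over oil (horizontal axis) for each of the 35 P450 genes tested, ordered by the mean of the 3 couples (bar), with a symbol for each couple. The 5 Cyp2c probes at the bottom lie between -2.51 and -2.17 in couple 1 and between -0.23 and -0.18 in couple 2.

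In family 1, Cyp1b1, which oxidises estrogens and polycyclic hydrocarbons, was the gene tested. Its log2 signal was 10.88, 8.65 and 9.83 in tamoxifen samples 1, 2 and 3 and 10.43, 9.34 and 9.07 in oil samples 1, 2 and 3. Both samples of couple 1 were the highest of their group and the groups overlapped. The ratios of 0.44, -0.69 and 0.76 averaged 0.17 ± 0.76 (SD, n = 3 couples; limma, adjusted p = 0.91), and the mean without couple 3 was -0.12. Of 12 other targets of the aryl hydrocarbon receptor, 8 were tested, with 3 above 0, 5 below 0, 0 past the threshold and a median of -0.06. Selenbp1, a selenium-binding protein, had -0.22, -0.55 and -0.58 in couples 1, 2 and 3 (limma, adjusted p = 0.69), and Nqo1, a quinone reductase, had -0.29, -0.33 and -0.72 (limma, adjusted p = 0.69). The receptor gene Ahr was at -0.27, 0.17 and -0.19 and its partner Arnt at 0.18, -0.12 and -0.24.

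Among the genes known from airway or nasal epithelium or for foreign compounds (Cyp2a, Cyp2b, Cyp2e, Cyp2f, Cyp2g, Cyp2s and Cyp4b1), 7 of 14 were tested, 3 above and 4 below 0. Cyp2f2, the club cell P450 that activates naphthalene, had log2 signals of 10.94, 12.40 and 11.98 in tamoxifen samples 1, 2 and 3 and 11.59, 12.90 and 10.88 in oil samples 1, 2 and 3. The second sample of each group was the highest, and oil 3 and tamoxifen 1 were the lowest. Its ratios of -0.66, -0.51 and 1.10 averaged -0.02 ± 0.97 (SD, n = 3 couples; limma, adjusted p = 0.99), with 0.014 under median centring. It was the only P450 gene tested that was more than 2-fold higher in tamoxifen in couple 3, where 0.542% of all genes were. In couples 1 and 2 there were 0 such P450 genes, against 0.63% and 0.508% of all genes. Cyp2s1, an enzyme of epithelia, had 8.24, 9.39 and 9.24 in tamoxifen and 9.06, 10.21 and 9.21 in oil, in sample order. The tamoxifen sample was below the oil sample in couples 1 and 2, with a ratio of -0.82 in each, and close to it in couple 3, at 0.02 (mean -0.54 ± 0.48, SD, n = 3 couples; limma, adjusted p = 0.69).

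Cyp2b10, the classic target of the receptor CAR (Nr1i3), was at 9.31, 10.62 and 10.54 in tamoxifen and 10.01, 10.53 and 10.55 in oil. The samples of couple 1 were the lowest of each group, and the ratio was -0.70 in couple 1 against 0.09 and -0.01 in couples 2 and 3. A dimmer Cyp2b10 probe gave -0.25, 0.07 and -0.04. Cyp2b9, whose probe is also listed for Cyp2b10, had -0.75, 0.13 and 0.12. Cyp4b1, known from lung and active on furans, had -0.12, 0.27 and 0.32. Cyp2a4 and Cyp2a5, steroid and coumarin hydroxylases, were at 0.14 ± 0.14 and 0.16 ± 0.11 (SD, n = 3 couples), and the Cyp2a4 probe is also listed for Cyp2a5. None of these genes passed the threshold (limma, adjusted p from 0.69 to 0.99 over the P450 genes).

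Club cell markers moved between samples of a group as well. Of 13, 11 were tested, 3 above and 8 below 0, where 51.2% of all genes were below 0. The median of their mean ratios was -0.14, but their medians within couples 1, 2 and 3 were 0.13, 0.086 and 0.013. Their summed signal ran from 82084 to 303459 over the tamoxifen samples and from 97186 to 247489 over the oil samples. Scgb1a1, the secretoglobin that defines these cells, had log2 signals of 12.54, 15.76 and 15.09 in tamoxifen and 14.28, 15.68 and 14.03 in oil, so the second sample of each group was again the highest. Its ratios were -1.74, 0.09 and 1.06. The markers Cckar (0.79, 0.98 and 0.07) and Cbr2 (0.35, -2.33 and -1.18) went different ways (limma, adjusted p = 0.69 and 0.70). The part of club cells in the Cyp2f2 and Cyp2s1 values was not tested, and in bulk tumor RNA fewer cells of a type and less RNA per cell cannot be told apart.

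In the Cyp2c and Cyp2j subfamilies, 12 of 21 genes were tested, 3 above and 9 below 0. The 5 probes shown above had the lowest mean ratios of all P450 genes, from -1.36 to -1.12. These were the only P450 genes tested with a mean at least 2-fold lower in tamoxifen, which held for 0.234% of all genes. Cyp2c69 had log2 signals of 8.98, 11.71 and 8.69 in tamoxifen samples 1, 2 and 3 and 11.49, 11.89 and 10.10 in oil samples 1, 2 and 3. Tamoxifen 2, oil 1 and oil 2 were high, tamoxifen 1, tamoxifen 3 and oil 3 were low, and the groups overlapped. Its ratios of -2.51, -0.18 and -1.41 averaged -1.36 ± 1.16 (SD, n = 3 couples), 2.58-fold lower in tamoxifen (limma, adjusted p = 0.69). Cyp2c67 had 9.49, 12.12 and 9.21 in tamoxifen and 11.84, 12.31 and 10.41 in oil. Cyp2c29, an arachidonic acid epoxygenase, had 8.04, 10.52 and 7.83 in tamoxifen and 10.34, 10.74 and 8.82 in oil. The same samples were high and low for all 5 probes, and between the lowest of the high samples and the highest of the low samples lay 1.32 to 1.52 on the log2 scale.

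Over the 5 probes the oil signal was 4.49-fold to 5.68-fold that of tamoxifen in couple 1, 1.13-fold to 1.17-fold in couple 2 and 1.99-fold to 2.66-fold in couple 3. More than 2-fold lower in tamoxifen were all 5 in couple 1 (0.908% of all genes), 0 in couple 2 (0.679%) and 4 in couple 3 (0.791%). The dye orientations gave alike values: in couple 1 the ratios ran from -2.57 to -2.15 with tamoxifen in Cy5 and from -2.45 to -2.13 with tamoxifen in Cy3. The adjusted p was 0.69 for each probe (limma). Without couple 1 the mean ratios ran from -0.79 to -0.60, with -0.79 for Cyp2c69, -0.73 for Cyp2c68, -0.69 for Cyp2c67 and -0.60 for both Cyp2c29 and Cyp2c40. Without couple 2 they ran from -1.96 for Cyp2c69 to -1.59 for Cyp2c40.

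Genes of the sex chromosomes differed between the same samples. Xist, the RNA that coats the inactive X chromosome in females, had log2 signals of 6.62, 9.09 and 6.08 in tamoxifen and 8.74, 8.99 and 5.98 in oil. It was high in the same 3 samples as the Cyp2c probes. Eif2s3y, a gene of the Y chromosome, had 9.73, 6.20 and 10.70 in tamoxifen and 6.01, 6.06 and 10.07 in oil, the reverse pattern. Ddx3y and Uty, also of the Y chromosome, were well above background in the samples with high Eif2s3y and in 0 readings of the others. A Kdm5d probe showed no such split, with signals from 7.61 to 7.96 in all 6 samples. So the samples of couple 1 differed in these genes, and those of couples 2 and 3 did not. These genes were singled out after their values were seen, and their part in the Cyp2c values was not tested. Within couple 3, where both samples had low Xist and high Eif2s3y, the Cyp2c ratios ran from -1.41 to -0.99, and within couple 2 from -0.23 to -0.18.

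Of 15 hepatocyte markers, 6 were tested, and the 9 others, among them Apoa1, Ttr and Cps1, did not pass the filter. The summed signal of the 6 tested markers ran from 2070 to 2591 in tamoxifen and from 2626 to 3047 in oil. Alb, the albumin gene, had 9.91, 9.44 and 8.95 in tamoxifen and 9.84, 9.91 and 10.42 in oil, without the split of samples seen for the Cyp2c probes. Its ratios were 0.06, -0.47 and -1.47 (limma, adjusted p = 0.70), and Apoa2 had -0.09, -0.28 and -0.08. The part of hepatocyte RNA in the Cyp2c values was not tested.

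**Figure D3:**
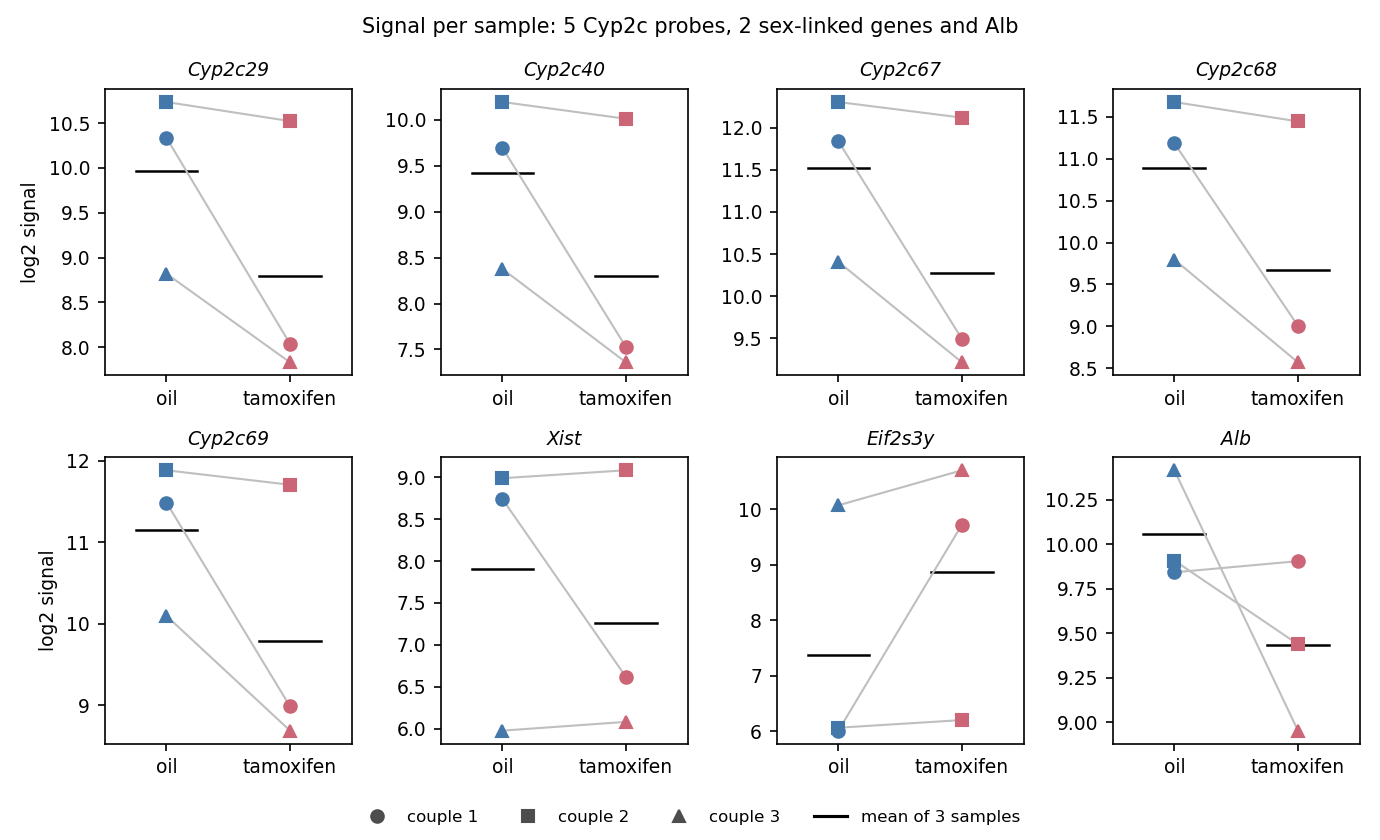
Log2 signal per sample (vertical axis, a scale of its own in each panel) in oil and tamoxifen for the 5 Cyp2c probes, Xist, Eif2s3y and Alb. Lines join the samples of a couple and bars give the mean of 3 samples. Tamoxifen 2, oil 1 and oil 2 are high for the 5 Cyp2c probes and for Xist and low for Eif2s3y.

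Of the 10 other Cyp2c genes, 7 were not tested. Cyp2c38 lay between 6.99 and 7.11 and Cyp2c70, a bile acid hydroxylase, between 6.83 and 7.19 in all 6 samples. Cyp2c44, now named Cyp2c23 and known as an epoxygenase, passed the background flag in both readings of tamoxifen 1 and 3 and in 0 readings of tamoxifen 2 and of oil, so it was tested only through the group in which it is brighter. A dimmer Cyp2c44 probe passed the flag in 0 readings. For the brighter probe, the tamoxifen mean was 1.17-fold the lowest signal that could count for oil. That is no lower bound, because tamoxifen 2 is included and did not pass the flag either. Its log2 signals were 6.66, 6.27 and 6.58 in tamoxifen and 6.19, 6.17 and 6.24 in oil, and those of tamoxifen 2 and oil, not well above background, have no order. Cyp2j6, an epoxygenase, had 6.99, 7.02 and 7.32 in tamoxifen and 6.65, 6.95 and 6.54 in oil, without overlap, with a mean ratio of 0.40 ± 0.36 (SD, n = 3 couples; limma, adjusted p = 0.69). By value alone, the tamoxifen samples lay above all oil samples for 2 P450 genes, Cyp2j6 and Cyp2c44, and for 5.2% of all genes. With the scanner software's processed signals it held for Cyp2c44 and Cyp4f16, not for Cyp2j6, and for 5.35% of all genes. A dimmer Cyp2j6 probe passed the background flag in 0 readings. Cyp2j8 had ratios of 0.30, 0.02 and 0.91, and Cyp2j9 and Cyp2j13 were at -0.05 and -0.11. Cyp2j13, with 2 tamoxifen and 5 oil readings well above background, was tested only through oil, the group in which it is brighter. Its place among the genes below 0 therefore carries no weight. A dimmer Cyp2j13 probe went the other way, with a mean of 0.14, and passed the flag in 1 tamoxifen and 0 oil readings. Of 13 other eicosanoid enzymes, 10 were tested, 4 above and 6 below 0, with a median of -0.14. Pla2g4a, which releases arachidonic acid, was at -0.48, 0.00 and -0.55 and the prostaglandin E synthase gene Ptges at -0.32, -0.11 and -0.19.

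In the drug-oxidising subfamilies Cyp2d and Cyp3a, 5 of 16 genes were tested. Cyp3a13 had the lowest unadjusted p of the P450 genes, 0.0025 in limma's fit across all genes. Its probe lies at chr5:138335412-138335471 (mm9, minus strand, NM_007819), was listed for this gene alone, and its bases 1 to 30 are shown because its samples did not overlap.
Cyp3a13 probe: cctgtggaccagaaaccaattcatattgtg
Its log2 signals were 6.95, 7.19 and 7.36 in tamoxifen samples 1, 2 and 3 and 7.72, 7.82 and 7.76 in oil samples 1, 2 and 3. All 3 tamoxifen samples lay below all 3 oil samples, as for 7.14% of all genes, and it was the only P450 gene tested for which this held. With the scanner software's processed signals it was again the only one, and the share of all genes was 3.43%. Its ratios of -0.76, -0.63 and -0.41 averaged -0.60 ± 0.18 (SD, n = 3 couples), 1.51-fold lower in tamoxifen (limma, adjusted p = 0.69), and were below 0 on all 6 arrays. With each couple left out in turn the mean ran from -0.70 to -0.52. Cyp2d22, a close relative of human CYP2D6, was at 0.09 ± 0.05 (SD, n = 3 couples), and Cyp2d11, Cyp2d13 and Cyp2d26 were at -0.02, -0.02 and 0.04. A dimmer Cyp2d26 probe, well above background in 0 tamoxifen and 1 oil readings, had a mean of -0.11.

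Markers of alveolar type 2 cells, the surfactant-producing cells in which the EGFR transgene is active, are given beside Cyp3a13. Of 12, all tested, 0 passed the threshold, 11 had a mean ratio below 0 (51.2% of all genes) and 6 had all tamoxifen samples below all oil samples (7.14% of all genes), with a median of -0.28. Their summed signal ran from 620313 to 628971 in tamoxifen and from 761918 to 783561 in oil. Sftpb, a surfactant protein, had ratios of -0.52, -0.67 and -0.67 and the fatty acid transporter Cd36 had -0.80, -0.71 and -0.52 (limma, adjusted p = 0.67 for both). The part of these cells in the values of Cyp3a13 and of the electron donors below was not tested.

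In the subfamilies Cyp4a, Cyp4f, Cyp4v and Cyp4x, 6 of 15 genes were tested, 5 above and 1 below 0. Cyp4f17 had 8.41, 8.22 and 8.37 in tamoxifen and 8.22, 8.03 and 8.13 in oil, higher in each couple by 0.18, 0.19 and 0.24 with overlapping groups (mean 0.21 ± 0.03, SD, n = 3 couples; limma, adjusted p = 0.69). Cyp4f16 was at 0.09, 0.21 and 0.29, while a dimmer probe of it had a mean of -0.06. Cyp4f13 and Cyp4f39 were at 0.10 and 0.14, and a dimmer Cyp4f13 probe at -0.03. Cyp4f39, with 5 tamoxifen and 2 oil readings well above background, was tested only through tamoxifen, the group in which it is brighter. Its place among the 5 genes above 0 therefore carries no weight. Cyp4f18, a leukotriene B4 hydroxylase of neutrophils, was at -0.34, 0.03 and 0.34, and its other 2 probes had means of 0.06 each. Neutrophil and monocyte markers, 7 of 8 tested, had medians of 0.0057, 0.50 and -0.10 in couples 1, 2 and 3. Cyp4v3, a fatty acid hydroxylase, had 10.70, 10.25 and 10.75 in tamoxifen and 10.88, 10.41 and 11.55 in oil. Oil 3 was the highest sample, the groups overlapped, and the ratios of -0.18, -0.17 and -0.80 averaged -0.38 ± 0.36 (SD, n = 3 couples; limma, adjusted p = 0.69). Of 15 PPAR targets outside the P450s, 14 were tested, 7 above and 7 below 0. Among them Pdk4, a kinase that restrains glucose oxidation, was at -0.23, -0.41 and -0.40 and Acot1, an acyl-CoA thioesterase, at 1.88, 0.96 and -0.02. Ppara itself was at 0.63, -0.66 and -0.75.

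All 4 remaining family 2 genes were well above background in every reading. Cyp2r1, the main vitamin D hydroxylase of the liver, had 9.15, 9.18 and 9.34 in tamoxifen and 9.35, 9.29 and 9.46 in oil. The ratios were -0.19, -0.11 and -0.12, and the groups overlapped (limma, adjusted p = 0.72). Cyp2u1, a fatty acid hydroxylase, was at -0.45, -0.12 and -0.03 by a probe listed for an Ensembl transcript. The dye orientations of this probe differed, with 0.0044, 0.25 and 0.35 for tamoxifen in Cy5 and -0.90, -0.49 and -0.40 for tamoxifen in Cy3. A dimmer probe for another Ensembl transcript, well above background in 5 tamoxifen and 6 oil readings, was at -0.12, -0.15 and -0.097. The RefSeq probe of Cyp2u1 passed the background flag in 0 readings, so which transcript gave these values is uncertain. Cyp2t4 and Cyp2w1 were at -0.03 and 0.02.

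**Figure D4:**
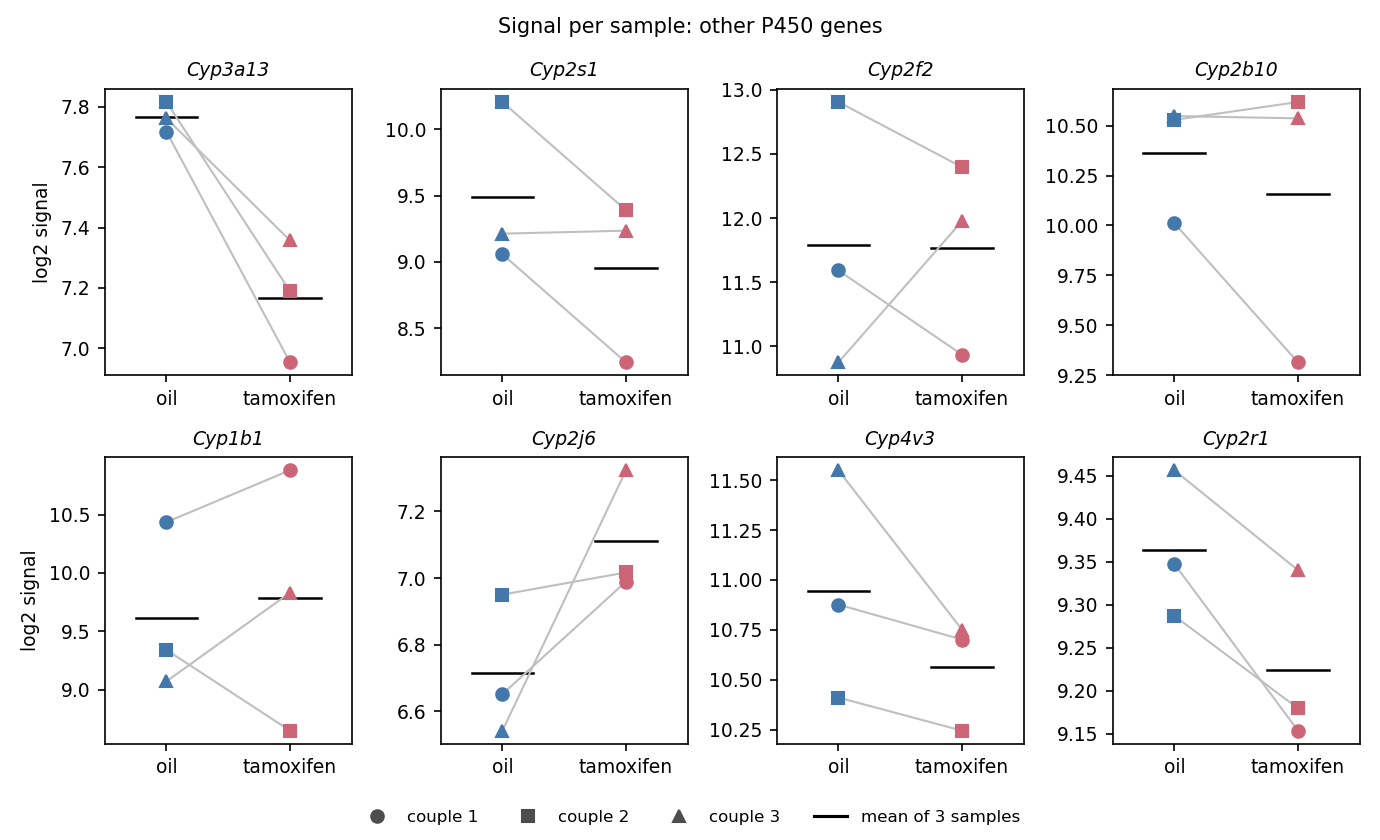
Log2 signal per sample (vertical axis, a scale of its own in each panel) in oil and tamoxifen for 8 other P450 genes, with lines joining the samples of a couple and bars at the mean of 3 samples. Cyp3a13 is lower in all tamoxifen samples, while Cyp2f2, Cyp1b1 and Cyp2b10 differ in direction between couples.

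Of 20 receptors and partners that control P450 genes, 16 were tested, 5 above and 11 below 0, with 0 past the threshold and a median of -0.06. Cebpa, a transcription factor of liver and lung epithelium, had -0.35, -0.25 and -0.53, and Esr2, an estrogen receptor, had -0.39, -0.19 and -0.01 (limma, adjusted p = 0.69 and 0.72). Nr1i2, which encodes the receptor PXR that controls Cyp3a genes, was well above background in 0 readings, and Nr1i3 was at -0.09, -0.05 and -0.08. Of 19 genes for electron donors and heme supply, 18 were tested, 6 above and 12 below 0, with a median of -0.09 and 0 past the threshold. Por had 12.30, 12.46 and 12.29 in tamoxifen and 12.64, 12.73 and 12.62 in oil, lower in every tamoxifen sample, with ratios of -0.34, -0.28 and -0.33 (limma, adjusted p = 0.69). Cyb5r3, which reduces cytochrome b5, was at -0.33, -0.44 and -0.62 and also did not overlap. All tamoxifen samples lay below all oil samples for these 2 of the 18 genes, and for 7.14% of all genes. Alas1, the first enzyme of heme synthesis, was at -0.31, -0.07 and -0.62. P450 genes of other families gave 10 tested of 21, 7 above and 3 below 0, with the prostacyclin synthase gene Ptgis at -0.40, -0.42 and -0.41 and Cyp20a1 at 0.32, 0.24 and 0.13. Conjugating and epoxide-hydrolysing enzymes gave 18 tested of 24, 8 above and 10 below 0, with the flavin monooxygenase gene Fmo2 at -0.52, -0.24 and -0.86 and the epoxide hydrolase gene Ephx1 at 0.53, 0.06 and 0.34. No gene of these lists passed the threshold (limma).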

How the data were processed

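Per the labels, total RNA (50 ng per reaction) was labelled with Cy3 or Cy5 and hybridised to Agilent SurePrint G3 Mouse 8 x 60K v2 arrays, here 6 arrays on 1 slide with 1 scan time. Per the file headers, the deposited scanner files hold unnormalized intensity values, a mean foreground and a median background for every spot and channel. The scanner software was Agilent Feature Extraction, version 12.0.3.1 in the submitters' processing notes. Its log10 ratio, Cy5 over Cy3, is in the same deposited files, as are flags for spots well above background, outlying or saturated, per the file headers. The deposited value table has log2 ratios, Cy5 over Cy3: set against the log10 ratios of the same array, every slope was 3.32 or 3.33, and the column medians ran from -0.15 to 0.14. The sources used here do not state how the authors tested them.

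Intensities were corrected in limma 3.58.1, under R 4.3.3, with the normexp method (offset 50), then loess within arrays with the 3671 control spots of 62976 at weight 0 and then left out. Spots with an outlier flag (89 to 132 per array) were left out, 0 were saturated, and 2 genes with a missing spot were dropped. The brightest probe stood for a gene name. Arrays were turned to tamoxifen over oil, the arrays of a couple were averaged, and the 3 couples were tested against 0, two-sided, with lmFit and eBayes and Benjamini-Hochberg adjustment over 20475 genes. Samples with the same number are paired by the arrays they share, per the labels. Signals per sample are log2 values after loess and Aquantile normalization, averaged over the arrays of a sample, and are compared only within a probe. A ratio of a dim probe is pulled toward 0 by the offset. The fold given for Cyp2c44 sets the brighter group's mean against the lowest signal of probes well above background, or the dim probe's own where higher. Of the 73 genes, 70 matched a current symbol through RefSeq accessions.

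The genes and all lists were chosen with earlier results of these data known. Every P450 gene was named or counted, and of each list the pair with the smallest unadjusted p was named, together with Ahr, Arnt, Nr1i2, Nr1i3, Ppara, Por, Alas1, Scgb1a1, Alb and Ror1. Genes of the sex chromosomes, Hnf4a and Kdm5d were named after their values were seen. The fit was tested on simulated data. Alternatives covered background correction, normalization, filters, probe choice, the replicate block and each couple left out.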

Additional observations from a re-analysis of the deposited data

How the results depend on the processing

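The number of P450 genes past the adjusted threshold was 0 in all 14 alternatives. The lowest adjusted p over them was 0.080, for Cyp3a13, in a fit of 6 arrays with the couple as replicate block and no term for the dye, chosen after seeing the data; that fit called 56 genes of all tested, 19 higher and 37 lower in tamoxifen. With a dye term, the fit with the replicate block called 9 genes (3 higher, 6 lower), and Cyp3a13 had an adjusted p of 0.27. With the channels as 3 against 3 samples and no pairing, 1 gene was called. The cause of these differences was not tested. With each couple left out, 0 genes were called, and the median of the P450 genes ran from -0.060 to 0.034. Of the 29 P450 genes with a value in all 14 alternatives, 20 kept their direction in each. The 6 that the filter of all 12 readings left out kept it in the other 13. Cyp2f2 turned to 0.014 under median centring. Leaving out a couple gave ranges that crossed 0 for Cyp1b1 (-0.12 to 0.60), Cyp2b10 (-0.35 to 0.039), Cyp2b9 (-0.32 to 0.13), Cyp2c38 (-0.037 to 0.013), Cyp2d11 (-0.069 to 0.0046), Cyp2d13 (-0.12 to 0.050), Cyp2f2 (-0.58 to 0.30), Cyp2w1 (-0.026 to 0.096) and Cyp4f18 (-0.16 to 0.19). By the flag for a positive and significant signal, 39 of the 73 P450 genes passed in all 12 readings, against 29 well above background.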

Other observations

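Markers of further cell types, listed with the tests, gave 0 genes past limma's adjusted threshold, and the values that follow are mean log2 ratios of tamoxifen over oil. Ciliated cell markers had 2 above and 4 below 0 (Mcidas -0.18, Tekt1 -0.21), endothelial markers 7 and 1 (Erg 0.22, Cldn5 0.32; list medians of -0.16, 0.11 and 0.18 in couples 1, 2 and 3), fibroblast and matrix genes 1 and 8 (Col1a2 -0.32, Col1a1 -0.22), and alveolar macrophage markers 1 and 10 (Ctsk -0.52, Msr1 -0.22). The macrophage list had medians of -1.10, 0.66 and -0.36 in couples 1, 2 and 3, so couple 2 lay on the other side of 0. Among neutrophil and monocyte markers S100a9 was at 0.62 and Cxcr2 at 0.24.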
